A study of Mus musculus with 15 samples.

Results

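The interleukin-6 (IL6) family of cytokines, its signal transducer Stat3 and the interleukin-23 subunit Il23a were examined in mouse mammary tumors and glands by RNA-seq. The 10 genes were taken by symbol from the 51826 genes of the deposited tables: the ligands Il6, Il11, Osm and Lif, the receptors Il6ra, Il6st and Osmr, the transducer Stat3, the feedback inhibitor Socs3, and Il23a. Each symbol had 1 row in both tables, and all 10 genes were above 0 in all 15 libraries. The libraries came from 13 mice of the FVB strain per the labels, while the series design names an FVB/129 background. The 6 Trim24COE tumors, 3 labelled Carcinosarcoma (mice 64, 567 and 897) and 3 labelled Carcinoma (mice 89, 273_5 and 3956), arose in mice that carry a FLAG-tagged mouse Trim24 cDNA behind a floxed stop cassette, at 1 insertion, with Cre driven by the MMTV promoter in mammary epithelium. The 4 control glands (mice 133, 392, 417_3 and 517_3) were disease-free mammary glands of mice with the same MMTV-Cre and no Trim24 transgene. The 3 non-TRIM24 tumors (mice 219, FVB001 and FVB002) are labelled Carcinoma, arose spontaneously, and have a genotype given as unknown. Gland 133 and carcinoma 3956 were each sequenced again in batch 2, the batch of the 3 non-TRIM24 tumors.

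Cytokines of the IL6 family signal through receptor complexes that share the gp130 chain, encoded by Il6st. Il6 and Il11 first bind their own alpha chains and then gp130, Lif pairs gp130 with the Lif receptor, and Osm pairs it with the Osm receptor. The assembled receptors activate Jak kinases, which phosphorylate Stat3. Phosphorylated Stat3 enters the nucleus and induces, among other genes, Socs3, whose product binds gp130 and damps further signaling. In the mammary gland, Lif and Stat3 are known for the cell death and tissue remodeling of involution after weaning. Il23a encodes the p19 chain, which pairs with the p40 chain (Il12b) to form interleukin-23, a cytokine of myeloid cells that signals through a receptor holding Il23r and also uses Stat3.

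Levels are given in TPM, a share of all transcripts scaled per transcript length, so levels of different genes can be compared. Since TPM are shares with a fixed total, the depth behind each value is unknown. Trim24 itself, to which the endogenous gene and the transgene could both contribute reads, was 10.6 to 14.5 TPM in the carcinosarcomas, 13.9 to 24.1 TPM in the Trim24COE carcinomas, 14.5 to 22.4 TPM in the glands. It was 5.34 to 10.04 TPM in the non-TRIM24 tumors. The Trim24COE carcinomas overlapped the glands, with 1 carcinoma above the highest gland, whereas no carcinosarcoma was above the lowest gland. Groups are named by their labels throughout. Glands 417_3 and 517_3 stood apart from glands 133 and 392. Their Spearman correlation with each other was 0.97, with 4.08% of genes over 2-fold apart. Each had a correlation of 0.78 to 0.83 with glands 133 and 392, with 32.7% to 41.4% of genes over 2-fold apart. First and repeat library of gland 133, in different batches, had a correlation of 0.94, with 12.3% of genes over 2-fold apart. For carcinoma 3956 these values were 0.96 and 4.825%. Glands 417_3 and 517_3, in 1 batch, were thus more alike than the libraries of either mouse sequenced again. Whether these glands share material was not tested, and they are counted as separate mice per their labels. In the non-TRIM24 tumors, FVB002 lay between 219 and FVB001 in 95% of the 1432 genes that differ at least 4-fold between these tumors, near the middle (median position 0.56 from FVB001 toward 219, quartiles 0.48 and 0.66). In the same check each carcinosarcoma or Trim24COE carcinoma lay between the other tumors of its class in 48.9% to 76.9% of genes. Whether FVB002 shares material with 219 and FVB001 was not tested, and fitted differences of the non-TRIM24 tumors are therefore also given without it.

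**Figure D1:**
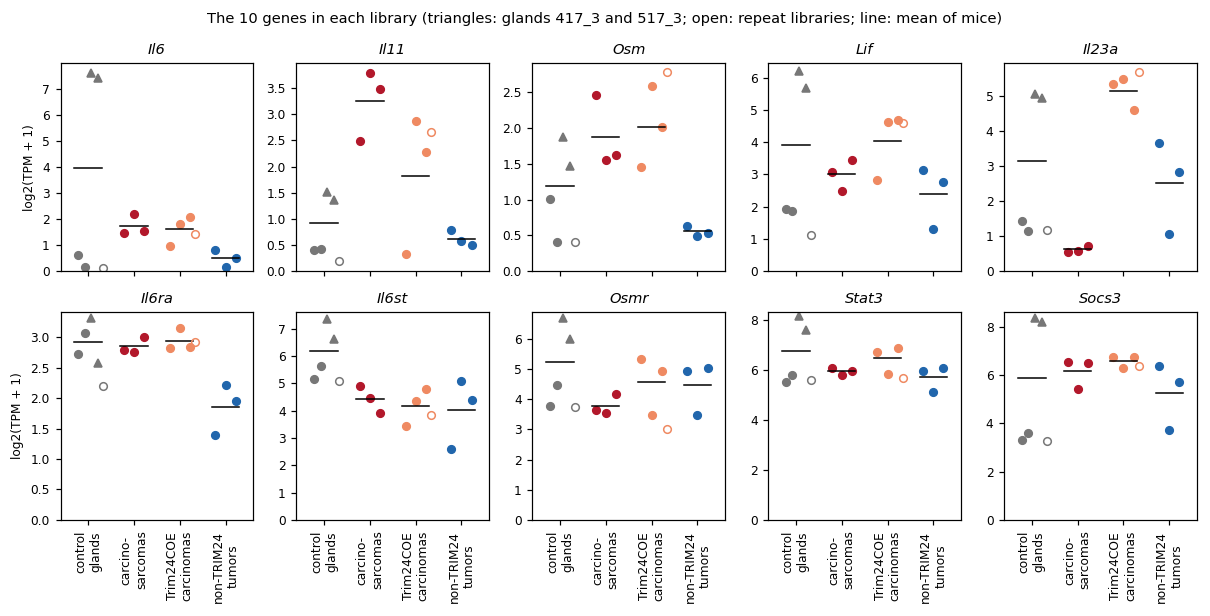
Level of each of the 10 genes as log2(TPM + 1) in the first library of each mouse (filled symbols), with glands 417_3 and 517_3 as triangles, repeat libraries as open circles and the mean over mice as a line. For Il6, Lif, Il23a, Stat3 and Socs3 the control glands fall into 2 levels, glands 417_3 and 517_3 above glands 133 and 392. Glands 417_3 and 517_3 lie highest for Il6, Lif, Stat3 and Socs3. For Il23a they lie near the Trim24COE carcinomas, and the carcinosarcomas lie lowest.

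Of the ligand genes, Il6 and Lif differed widely among the control glands, and Il11 and Osm less so. Il6 (ENSMUSG00000025746.11, GRCm38 chr5:30013114-30019981, plus strand) encodes a cytokine of fever, acute-phase and wound responses. Its level was 0.53 TPM in gland 133, 0.11 TPM in gland 392, 193 TPM in gland 417_3 and 168 TPM in gland 517_3. In the carcinosarcomas it was 3.54, 1.76 and 1.94 TPM (64, 567, 897), in the Trim24COE carcinomas 3.22, 0.94 and 2.45 TPM (89, 273_5, 3956), and in the non-TRIM24 tumors 0.75, 0.10 and 0.42 TPM (219, FVB001, FVB002). All 6 Trim24COE tumors lay inside the range of the glands, above both glands 133 and 392 and far below both glands 417_3 and 517_3. They also lay above the 3 non-TRIM24 tumors, but the repeat library of gland 133, in the batch of those tumors, fell to 0.09 TPM. With batch in the fit the difference from those tumors was 0.65 for the Trim24COE carcinomas (limma adjusted p = 0.852) and 0.76 for the carcinosarcomas (limma adjusted p = 0.820). Without FVB002 it was 0.67 (limma adjusted p = 0.903) and 0.77 (limma adjusted p = 0.878). The log2 fold change of the 6 tumors against the 4 glands was -2.27 ± 1.40 (SE; limma adjusted p = 0.285). It was 1.29 without glands 417_3 and 517_3 (limma adjusted p = 0.0376) and -5.83 without glands 133 and 392 (limma adjusted p = 4.25e-05), so the direction of the Il6 difference was set by which glands entered.

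Lif (ENSMUSG00000034394.14, chr11:4257557-4272514, plus strand), the leukemia inhibitory factor, had the same split among glands, with 2.82 and 2.63 TPM in glands 133 and 392 against 72.6 and 50.1 TPM in glands 417_3 and 517_3. Among the tumors, 2 carcinomas were highest, at 24.7 TPM in 89 and 23.6 TPM in 3956, and the third, 273_5, had 6.10 TPM. The carcinosarcomas had 4.65, 7.50 and 9.81 TPM (64, 567, 897), and the non-TRIM24 tumors 7.80, 1.48 and 5.84 TPM (219, FVB001, FVB002). The Lif difference between carcinosarcomas and Trim24COE carcinomas was -1.04 (95% CI -2.35 to 0.27; limma adjusted p = 0.423), with 273_5 inside the range of the carcinosarcomas. Against the 4 glands the 6 tumors differed by -0.39 ± 0.89 (SE; limma adjusted p = 0.798). The difference was 1.63 without glands 417_3 and 517_3 (limma adjusted p = 0.0944) and -2.41 without glands 133 and 392 (limma adjusted p = 0.0286), so its direction turned with the glands.

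Il11 (ENSMUSG00000004371.14, chr7:4772373-4782859, minus strand), a ligand of stromal and epithelial tissue repair, was the ligand called in the carcinosarcomas against the glands. It was 12.9, 4.62 and 10.3 TPM in carcinosarcomas 64, 567 and 897, against 0.32, 0.34, 1.85 and 1.55 TPM in glands 133, 392, 417_3 and 517_3. The Trim24COE carcinomas had 3.85, 0.26 and 6.31 TPM (89, 273_5, 3956) and the non-TRIM24 tumors 0.72, 0.48 and 0.41 TPM (219, FVB001, FVB002). All 3 carcinosarcomas were above every gland and every non-TRIM24 tumor, and they overlapped the carcinomas, in which 273_5 was as low as the glands. Against the glands the carcinosarcomas rose by a log2 fold change of 2.34 ± 0.44 (SE; limma adjusted p = 0.00938). Without glands 417_3 and 517_3 it was 2.85 (limma adjusted p = 0.00737), and without glands 133 and 392 it was 1.83 (limma adjusted p = 0.0194), so Il11 kept its call whichever pair of glands was left out. It missed the threshold when carcinosarcoma 64 was left out (2.07, limma adjusted p = 0.0512).

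Osm (ENSMUSG00000058755.3, chr11:4236420-4241026, plus strand), oncostatin M, is a product of macrophages, neutrophils and T cells. Its level was 1.94, 4.53 and 2.07 TPM in the carcinosarcomas (64, 567, 897), 3.05, 1.73 and 5.0 TPM in the Trim24COE carcinomas (89, 273_5, 3956), and 1.01, 0.32, 2.66 and 1.78 TPM in glands 133, 392, 417_3 and 517_3. The non-TRIM24 tumors had 0.55, 0.41 and 0.45 TPM (219, FVB001, FVB002), below all 6 Trim24COE tumors. The repeat library of gland 133, in their batch, had 0.32 TPM. With batch in the fit the Trim24COE carcinomas differed from them by 1.34 (limma adjusted p = 0.281) and the carcinosarcomas by 1.13 (limma adjusted p = 0.278). Without FVB002 these differences were 1.33 (limma adjusted p = 0.432) and 1.12 (limma adjusted p = 0.450). The log2 fold change of the 6 tumors against the glands was 0.76 ± 0.35 (SE; limma adjusted p = 0.157). Macrophage markers, which include C1qa and Cd68, summed to 1189 to 3469 TPM in the 6 tumors and 257 to 832 TPM in the glands. Of these, 7 of the 8 tested rose in the 6 tumors against the glands, where 17.1% of all genes were called, while 0 of them was at 0 in any library. Neutrophil markers summed to 103 to 2056 TPM in the tumors, highest in 89, against 6.54 to 12.7 TPM in the glands. The part of these cells in the level of Osm was not tested, and in whole tissue fewer cells of a type and less RNA per cell cannot be told apart.

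Il6st (ENSMUSG00000021756.12, chr13:112464070-112510086, plus strand), the shared gp130 chain, was the receptor gene that differed between tumors and glands. It was 20.9, 28.7 and 13.9 TPM in carcinosarcomas 64, 567 and 897, and 26.4, 9.85 and 19.3 TPM in carcinomas 89, 273_5 and 3956. The glands had 34.2, 48.0, 164 and 96.4 TPM (133, 392, 417_3, 517_3), and the non-TRIM24 tumors 5.03, 32.7 and 20.1 TPM (219, FVB001, FVB002). All 9 tumors lay below all 4 glands, although FVB001 lay close to gland 133. Il6st fell by 1.88 ± 0.44 (SE) on the log2 scale in the 6 Trim24COE tumors (limma adjusted p = 0.0150) and by 1.77 ± 0.54 in the carcinosarcomas alone (limma adjusted p = 0.0473). The call in the carcinosarcomas held only without gland 133 or gland 392 among the fits that left out 1 mouse (limma adjusted p = 0.0232 to 0.153), and it was lost without glands 417_3 and 517_3 (-0.96, limma adjusted p = 0.0856). For the carcinomas alone the difference was -1.996 ± 0.57 (limma adjusted p = 0.0967) and for the non-TRIM24 tumors -1.88 ± 0.65 (limma adjusted p = 0.163; -2.07 and 0.262 without FVB002), without a call. Without glands 417_3 and 517_3 the difference of the 6 tumors was -1.08 (limma adjusted p = 0.0887), and without glands 133 and 392 it was -2.69 (limma adjusted p = 0.00314), so its direction held and its call did not. Endothelial markers, of which 4 of 6 fell in the 6 tumors against all glands, where 17.1% of all genes were called, summed to 57.5 to 227 TPM in the 6 tumors and 201 to 363 TPM in the glands. Their part in the Il6st difference was not tested.

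Il6ra (ENSMUSG00000027947.11, chr3:89864059-89913196, minus strand), the alpha chain that binds Il6, was even across glands and Trim24COE tumors. The glands had 5.59, 7.41, 8.97 and 4.99 TPM (133, 392, 417_3, 517_3), the carcinosarcomas 5.73, 5.90 and 7.05 TPM (64, 567, 897), and the carcinomas 6.20, 6.09 and 7.94 TPM (89, 273_5, 3956). All 6 tumors lay within the range of the glands, and the log2 difference was -0.03 with a 95% CI of -0.54 to 0.49 (limma adjusted p = 0.955). The non-TRIM24 tumors had 1.64, 3.63 and 2.88 TPM (219, FVB001, FVB002), below every gland and every Trim24COE tumor among first libraries, but the repeat library of gland 133, in their batch, had 3.57 TPM. With batch in the fit their difference from the glands was -0.67 ± 0.33 (SE; limma adjusted p = 0.283) and, without FVB002, -0.72 (limma adjusted p = 0.402).

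Osmr (ENSMUSG00000022146.12, chr15:6813577-6874969, minus strand), the chain that pairs with gp130 to bind Osm, was 12.8 and 21.5 TPM in glands 133 and 392 and 104 and 63.5 TPM in glands 417_3 and 517_3. The carcinosarcomas had 10.6, 11.4 and 17.2 TPM (64, 567, 897), the Trim24COE carcinomas 29.7, 39.1 and 10.1 TPM (89, 273_5, 3956) and the non-TRIM24 tumors 29.7, 10.2 and 31.9 TPM (219, FVB001, FVB002). Every tumor was below glands 417_3 and 517_3, and the tumors overlapped glands 133 and 392. The difference of the 6 Trim24COE tumors from the glands was -1.07 ± 0.58 (SE; limma adjusted p = 0.230) and 0.04 without glands 417_3 and 517_3 (limma adjusted p = 0.962).

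Stat3 (ENSMUSG00000004040.16, chr11:100885098-100939540, minus strand), the transcription factor of the pathway, was 44.6 and 54.6 TPM in glands 133 and 392 and 285 and 193 TPM in glands 417_3 and 517_3. The tumors lay between, with 54.7, 67.2 and 60.9 TPM in the carcinosarcomas (64, 567, 897) and 116, 104 and 55.7 TPM in the carcinomas (89, 273_5, 3956). The non-TRIM24 tumors had 60.3, 33.8 and 67.1 TPM (219, FVB001, FVB002). The log2 difference of the 6 Trim24COE tumors was -0.56 ± 0.50 with all glands (SE; limma adjusted p = 0.474), 0.56 without glands 417_3 and 517_3 (limma adjusted p = 0.275) and -1.67 without glands 133 and 392 (limma adjusted p = 0.0126). RNA levels of Stat3 say nothing of its phosphorylation.

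Socs3 (ENSMUSG00000053113.3, chr11:117966079-117970047, minus strand), the inhibitor that Stat3 induces, had the highest mean level of the 10 genes. It was 8.95 and 10.97 TPM in glands 133 and 392 and 324 and 291 TPM in glands 417_3 and 517_3. The carcinosarcomas had 41.1, 91.4 and 89.6 TPM (64, 567, 897) and the Trim24COE carcinomas 105, 106 and 76.6 TPM (89, 273_5, 3956), so that every Trim24COE tumor was above glands 133 and 392 and below the other glands. The non-TRIM24 tumors had 81.8, 12.2 and 50.5 TPM (219, FVB001, FVB002), with FVB001 next to gland 392. Against all glands the 6 Trim24COE tumors differed by 0.51 ± 0.96 (SE; limma adjusted p = 0.756). The difference was 2.91 without glands 417_3 and 517_3 (limma adjusted p = 0.00151) and -1.90 without glands 133 and 392 (limma adjusted p = 0.00736). The call and the sign of Socs3 in tumors against glands therefore depended on the glands.

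The promoters of Il6 and Socs3 are shown because these were the ligand and the target gene with the widest range among the control glands. Promoter windows from RefSeq on GRCm38 were found for 8 of the 10 genes, with 9 start sites in all, and were not found for Osm and Il23a. The 250 bases before each start were searched on both strands for TTCNNNGAA (the STAT site), the kappa-B site (GGG, any 2 bases, TTTCC) and TGANTCA (the AP-1 site, bound by Fos and Jun dimers). Capitals mark the matches, and no match overlaps another. Il6 is the stretch chr5:30012864-30013113 on the plus strand, with an AP-1 match 249 to 243 bases and a kappa-B match 44 to 35 bases upstream of the start. Socs3 is the stretch chr11:117969452-117969616, read on the minus strand, that ends 86 bases before the RefSeq start, with a STAT match 154 to 146 bases upstream. This start and the stretch lie inside the wider gene span given for Socs3 above, so the 2 annotations used differ on the start.
Il6: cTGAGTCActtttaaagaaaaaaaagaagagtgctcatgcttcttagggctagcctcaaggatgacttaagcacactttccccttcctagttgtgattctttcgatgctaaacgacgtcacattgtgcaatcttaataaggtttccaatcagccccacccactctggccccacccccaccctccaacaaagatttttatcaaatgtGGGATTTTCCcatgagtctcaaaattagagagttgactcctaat
Socs3: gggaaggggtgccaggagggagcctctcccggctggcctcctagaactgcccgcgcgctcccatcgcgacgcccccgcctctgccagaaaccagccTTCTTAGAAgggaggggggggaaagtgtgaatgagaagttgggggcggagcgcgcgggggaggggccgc
Lif had a TGANTCA match 228 to 222 bases upstream and 1 of the Il11 start sites had one 98 to 92 bases upstream, in a window that also lies inside the gene span given for Il11. No match to any of the 3 motifs was found in the windows of Il6ra, Il6st, Osmr and Stat3. Of all 32851 promoter windows, 7.02% held TTCNNNGAA, 1.41% held the kappa-B site and 6.75% held TGANTCA. A match describes the letters of the window only.

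The difference between glands 417_3 and 517_3 and the other glands covered most of the 10 genes. Il6, Osmr, Lif, Stat3, Socs3 and Il23a, 6 of the 10, were at least 2-fold higher on the log2(TPM + 1) scale in each of glands 417_3 and 517_3 than in either of glands 133 and 392, against 12.6% of the 15196 genes tested. By the size of that gap Il6 ranked 5, Socs3 35, Lif 59 and Il23a 78 of 15196. The labels give no genotype, class or batch that separates these glands, so this compares 4 libraries and carries no test. Of 18 immediate early and acute inflammatory genes, 17 were higher in the same sense, among them Fos and Jun, transcription factors induced within minutes of a stimulus, and the heat shock gene Hspa1b. Their summed level was 220 and 288 TPM in glands 133 and 392, 20318 and 17437 TPM in glands 417_3 and 517_3, and 615 to 1228 TPM in the 6 Trim24COE tumors. Adipocyte markers went the other way in all 10 genes, with sums of 25912 and 38489 TPM in glands 133 and 392 and 1772 and 1963 TPM in glands 417_3 and 517_3. Epithelial markers, of which 7 of 8 were higher, summed to 813 and 1420 TPM in glands 133 and 392 and to 5357 and 5672 TPM in glands 417_3 and 517_3. The part of tissue makeup or of tissue handling in the levels of Il6 and Socs3 was not tested.

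**Figure D2:**
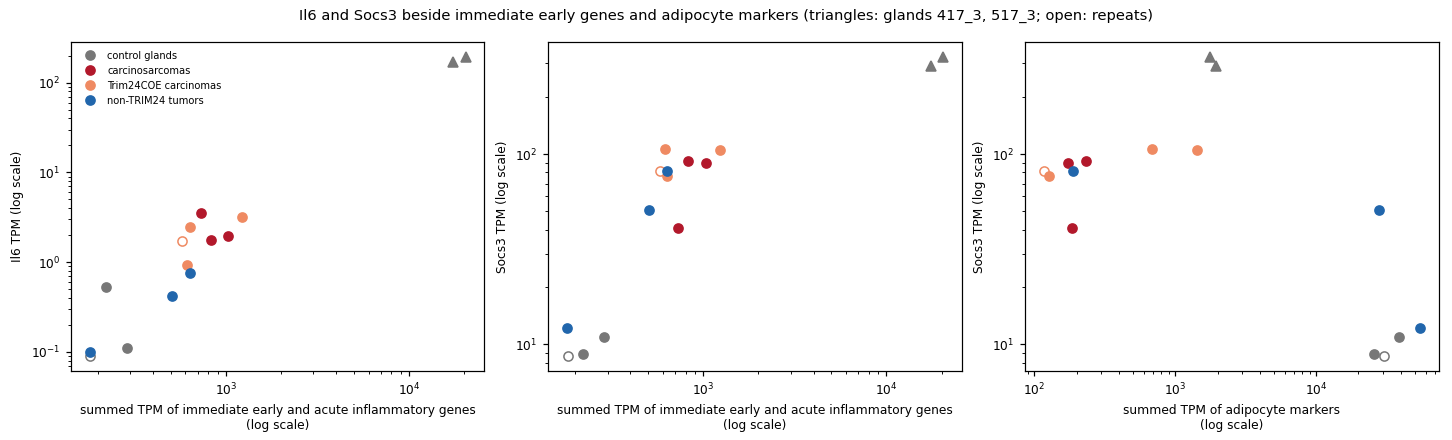
Level of Il6 (left) and Socs3 (middle) against the summed TPM of 18 immediate early and acute inflammatory genes, and Socs3 against the summed TPM of 10 adipocyte markers (right), on log axes, with 1 symbol per library colored by group. Glands 417_3 and 517_3 (triangles) lie alone at 20318 and 17437 TPM of immediate early genes, while glands 133 and 392 lie at the low end of both genes and the high end of adipocyte markers, beside tumor FVB001. Tumor FVB002 also lies at the high end of adipocyte markers, but its Socs3, 50.5 TPM, is above both of these glands.

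Il23a (ENSMUSG00000025383.2, chr10:128296139-128298752, minus strand) gave the sharpest contrast between the tumor classes. Its level was 0.50, 0.45 and 0.65 TPM in carcinosarcomas 64, 567 and 897, and 23.2, 39.6 and 43.6 TPM in carcinomas 89, 273_5 and 3956. The repeat library of carcinoma 3956 gave 49.9 TPM. The carcinosarcomas were below every other library, and the carcinomas were far above them with no overlap. In the carcinosarcomas Il23a fell by 4.53 ± 0.32 (SE) on the log2 scale against the carcinomas (95% CI -5.29 to -3.77; limma adjusted p = 0.00735), a difference that was known when the gene was chosen. This call missed the threshold without carcinoma 89 (limma adjusted p = 0.0652) and without carcinosarcoma 64 (limma adjusted p = 0.0804). In these fits 0 of all 14569 and 0 of all 15019 genes tested were called. The fold change was between -4.80 and -4.36 in all fits that left out 1 mouse.

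The other groups filled the range of Il23a between these classes. Glands 133 and 392 had 1.67 and 1.20 TPM and glands 417_3 and 517_3 had 32.4 and 29.3 TPM, so glands and carcinomas overlapped. The non-TRIM24 tumors had 11.5, 1.06 and 6.12 TPM (219, FVB001, FVB002), all between the carcinosarcomas and the carcinomas. With batch in the fit, the carcinomas exceeded them by a log2 fold change of 2.63 (95% CI 0.41 to 4.85; limma adjusted p = 0.232), and by 2.79 without FVB002 (limma adjusted p = 0.352). Against the glands, the difference was -2.52 ± 1.02 (SE) for the carcinosarcomas (limma adjusted p = 0.111) and 2.01 ± 1.04 for the carcinomas (limma adjusted p = 0.319). Without glands 417_3 and 517_3 it was -0.66 for the carcinosarcomas (limma adjusted p = 0.0709) and 3.86 for the carcinomas (limma adjusted p = 0.0232). Without glands 133 and 392 it was -4.38 for the carcinosarcomas (limma adjusted p = 0.000324) and 0.15 for the carcinomas (limma adjusted p = 0.819), so each class passed the threshold with a different pair of glands.

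The level of Il23a and the level of epithelial markers were high in the same libraries. The 8 epithelial markers, which include the adhesion proteins Epcam and Cdh1 and keratins, summed to 372, 511 and 1423 TPM in carcinosarcomas 64, 567 and 897 and to 4975, 2676 and 6687 TPM in carcinomas 89, 273_5 and 3956. Among the non-TRIM24 tumors they were 5757 TPM in 219, 556 TPM in FVB001 and 3186 TPM in FVB002. This was the order of Il23a, but FVB002 lay between the other tumors in most genes. Within the carcinosarcomas, the Trim24COE carcinomas and each pair of glands the order of the sums was not that of Il23a. Carcinoma 273_5, with the lowest sum of its class, had 39.6 TPM of Il23a, against 23.2 TPM in 89. Of the 7 tested between the tumor classes, Krt7, a keratin of ductal epithelium, fell in the carcinosarcomas (-6.20 ± 0.74; limma adjusted p = 0.0201), and none of the 8 markers was at 0 in any library. The dendritic cell markers summed to 7.47 to 36.6 TPM in the carcinosarcomas and 3.6 to 7.64 TPM in the carcinomas, which overlap. Of these markers 3 were tested between the classes and 0 were called. The part of epithelial content in the Il23a difference was not tested.

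**Figure D3:**
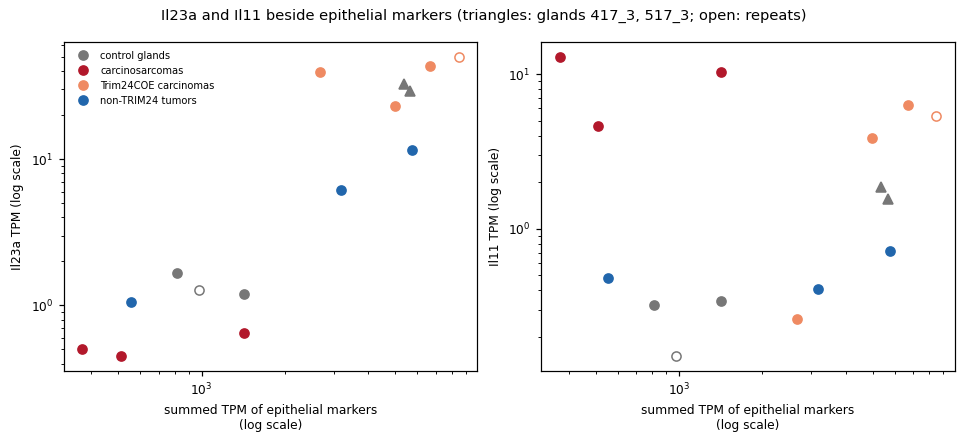
Level of Il23a (left) and Il11 (right) against the summed TPM of 8 epithelial markers, on log axes, with 1 symbol per library colored by group, triangles for glands 417_3 and 517_3 and open circles for repeat libraries. Libraries with 2676 TPM or more of epithelial markers have 6.12 TPM or more of Il23a and those with 1423 TPM or less have 1.67 TPM or less, whereas Il11 is highest in carcinosarcomas 64 and 897, with 372 and 1423 TPM of epithelial markers.

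Il12b, the partner chain without which Il23a does not form interleukin-23, did not have the pattern of Il23a. It was 11.3 and 9.03 TPM in glands 417_3 and 517_3 and at most 1.31 TPM in every other library, including 0.46, 0.20 and 0.11 TPM in the carcinomas rich in Il23a (89, 273_5, 3956). Il23r, the receptor chain, was at most 0.20 TPM in all libraries. Il17a, Il17f and Il22, cytokines of interleukin-23 responsive lymphocytes, were at most 0.36 TPM. Il1b, which acts with interleukin-23, was 1.98 and 2.59 TPM in glands 133 and 392, 189 and 199 TPM in glands 417_3 and 517_3, and 52.1 to 167 TPM in the 6 Trim24COE tumors.

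Across the comparisons few of the 10 genes were called. Against the 4 glands, 1 of 10 was called in the 6 Trim24COE tumors (Il6st), where 17.1% of all genes tested were called, and the median log2 fold change of the 10 was -0.32 beside -0.04 for all genes. In the carcinosarcomas 2 of 10 were called (Il11 higher, Il6st lower) against 23.0% of all genes, and in the Trim24COE carcinomas 0 of 10 by limma against 3.50%, with 1 gene, Il6st, at an unadjusted p under 0.05. Between carcinosarcomas and Trim24COE carcinomas 1 of 10 was called (Il23a) against 0.698%. That difference was known when the gene was chosen, so the count says nothing of the 10 genes as a set. These comparisons share their control glands or tumors, so they are not independent of one another. The other 9 genes did not pass the test between the tumor classes, with 95% CIs that reach from -2.35 to 3.08 on the log2 scale. Without glands 417_3 and 517_3, the 6 tumors gave 2 called genes, both higher (Il6 and Socs3), where 19.3% of all genes were called, a share near that of the 10 genes. Without glands 133 and 392 they gave 6, all lower (Il6, Il6st, Osmr, Lif, Stat3 and Socs3), against 16.2% of all genes.

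**Figure D4:**
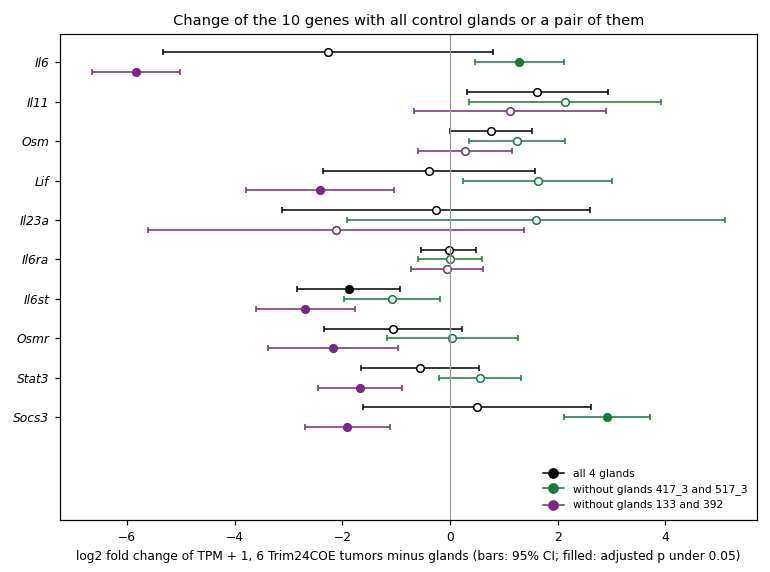
Log2 fold change of TPM + 1 in the 6 Trim24COE tumors against the control glands for each gene, with all 4 glands (black), without glands 417_3 and 517_3 (green) and without glands 133 and 392 (purple), with 95% CIs as bars and filled symbols where the limma adjusted p was under 0.05. Il6 and Socs3 pass the threshold on opposite sides of 0, at 1.29 and 2.91 or at -5.83 and -1.90, while Il6st lies below 0 and Il11 and Osm above 0 in all 3 fits.

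In the comparisons with the non-TRIM24 tumors, class and batch differ together, and the batch term rests on the repeat libraries of gland 133 and carcinoma 3956. Against the glands 0 of 10 genes were called in the non-TRIM24 tumors by limma, where 0.709% of all genes were called, and 1, Il6st, was at an unadjusted p under 0.05. In the Trim24COE carcinomas against the non-TRIM24 tumors 0 of 10 were called by limma against 0.0298% of all genes, with Osm and Il23a at an unadjusted p under 0.05. Both counts stayed at 0 without FVB002. Between carcinosarcomas and non-TRIM24 tumors 1 of 10 was called against 4.76% of all genes, Il11 with 2.46 ± 0.60 (SE; limma adjusted p = 0.0365). It missed the threshold without FVB002 (2.40, limma adjusted p = 0.119) and when any 1 of the 6 tumors was left out, where its adjusted p was 0.0558 to 0.145.

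The repeat libraries give the technical spread of these genes. Over the 10 genes and both mice, first and repeat library differed by a median of 0.20 and at most 0.82 on the log2(TPM + 1) scale. The largest difference was that of Lif in gland 133, with 2.82 and 1.17 TPM. Il6 in gland 133 was 0.53 and 0.09 TPM, so both libraries of this gland were low, and Socs3 in carcinoma 3956 was 76.6 and 81.0 TPM.

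Other genes of the pathway included some whose difference did not turn on the choice of glands. Of 5 other receptor genes, 4 were tested and 1 fell in the 6 tumors, where 17.1% of all genes were called. The gene that fell was Lifr, the chain that pairs with gp130 to bind Lif. It was 14.5 to 35.3 TPM in the glands and 2.45 to 5.64 TPM in all 9 tumors, and fell by 2.14 ± 0.29 (SE) on the log2 scale in the 6 tumors (limma adjusted p = 0.00120), also past the threshold without either pair of glands. Il11ra1, the alpha chain for Il11 and the highest of these receptors at 26.5 to 188 TPM, has near-identical gene copies in the mouse, so its level is uncertain.

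Of 19 Jak kinases, Stats and inhibitors, all tested, 1 rose (Ptpn6, a phosphatase of blood cells) and 3 fell in the 6 tumors (Stat5a, Stat5b and Cish), near the 17.1% of all genes called. The median log2 fold change of the 19 was -0.07 beside -0.04 for all genes. Stat5a, the transducer of prolactin in the mammary gland, was 26.4 to 81.5 TPM in the glands and 4.18 to 16.5 TPM in the 6 tumors, so that it fell by 2.54 ± 0.40 (SE) on the log2 scale (limma adjusted p = 0.00227), past the threshold also without either pair of glands. Cish, a target of Stat5, Stat5b and Ptpn6 missed it without glands 417_3 and 517_3 (limma adjusted p = 0.271, 0.0565 and 0.109). In the carcinosarcomas 5 of the 19 fell (Stat5a, Stat5b, Stat2, Cish and Jak3) and 0 rose, near the 23.0% of all genes called.

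Of 20 Stat3-induced and acute-phase genes, all tested, 2 rose and 1 fell in the 6 Trim24COE tumors, near the 17.1% of all genes called, with a median of 0.02 beside -0.04 for all genes. Timp1, an inhibitor of matrix metalloproteinases, was 7.18 to 22.3 TPM in the glands and 233 to 1684 TPM in the 6 tumors, which gives a difference of 5.14 ± 0.49 (SE; limma adjusted p = 2.18e-04). Saa3, a serum amyloid A made in inflamed tissue, was 1.98 to 3.94 TPM in the glands and 20.8 to 573 TPM in the tumors (4.41 ± 0.85; limma adjusted p = 0.00630). Both also passed the threshold without either pair of glands, whereas Lrg1, a secreted glycoprotein of the acute phase, fell by 1.70 with all glands (limma adjusted p = 0.0446) and missed the threshold without either pair. Lcn2, an iron-binding acute-phase protein and the highest gene of the list, fell in the carcinosarcomas against the glands by 4.26 ± 0.86 (limma adjusted p = 0.0118), from 268 to 2160 TPM in the glands to 22.01 to 114 TPM, and was 80.3 to 11702 TPM in the carcinomas. Without glands 417_3 and 517_3, 6 of the 20 rose in the 6 tumors (Cebpb, Junb, Myc, Il4ra, Timp1 and Saa3) and 0 fell, against 19.3% of all genes called. Without glands 133 and 392, 2 rose and 7 fell (Bcl3, Cebpb, Cebpd, Junb, Pim1, Myc and Nfkbiz), against 16.2% of all genes. Cebpb, Junb and Myc were thus called in opposite directions by the choice of glands, as Il6 and Socs3 were.

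The genes most like each member over the 10 first libraries of batch 1 were sought among 13957 genes by Pearson correlation of log2(TPM + 1). These libraries share tissue makeup and the split among the glands, so the values describe likeness only. Il6 was most like Jun (r = 0.99), Nr4a2 (0.98) and Hspa1a (0.98), immediate early and heat shock genes, and over the 8 libraries without glands 417_3 and 517_3 these values were 0.73, 0.64 and 0.61. Il23a was most like Rab27b (0.97), a regulator of vesicle secretion, Itga6 (0.96), an integrin of basal epithelium, and Hook2 (0.95), and these stayed at 0.97, 0.95 and 0.95 without those glands. Il11 was most like C1qtnf6 (0.94), Gpc1 (0.94), a heparan sulfate proteoglycan, and Fam167b (0.94). Il6st was most like Mmrn2 (0.99), a matrix protein of endothelium, Gprasp1 (0.98) and Dync1h1 (0.98). For Socs3 they were Nup62, Eif3c and Ppp2ca (0.98 each), for Lif Ptprk, Rlf and Luzp1 (0.97 each), for Stat3 Snora16a, Trp53bp1 and Rrp1b (0.97 each), for Osm Pofut2, Zdhhc8 and Dcaf12 (0.95 to 0.96) and for Osmr Cand2, Surf2 and Trp53bp1 (0.96 to 0.97). Il6ra, the most even of the 10 genes between the Trim24COE tumors and the glands, had the lowest values, with Snora44 (0.87), Fbxo18 (0.80) and Nav1 (0.79).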

How the data were processed

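RNA-seq was available for 15 libraries of 13 mice, grouped by the sample labels. The 10 genes and all lists were chosen with earlier results of these data known. The deposited TPM values were made by the authors with STAR and RSEM on GRCm38 (GENCODE M14 annotation) per their methods, while the submitters' processing notes also name TopHat, Cufflinks and mm10. TPM carry no depth, so no counting interval can be given. Gene positions come from GENCODE M21, in which 9 of the 10 genes have the same identifier version as in the files (Il11 differs), and promoters from RefSeq, both on GRCm38.

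Genes were kept where the number of libraries at 1 TPM or more reached the mouse number of the smaller group, and were tested on log2(TPM + 1) with limma 3.58.1 in R 4.3.3 (lmFit, trended eBayes; two-sided), adjusting by Benjamini-Hochberg over all genes tested and a threshold of 0.05. Fold changes are on the log2(TPM + 1) scale, which understates changes of low genes. Batch 1 comparisons took 1 library per mouse, the first, from the groups compared. For the non-TRIM24 tumors, all 15 libraries entered 1 fit with a batch term and mouse as a random block, whose within-mouse correlation of 0.95 was estimated once and kept in the alternatives. P-values measure the spread between mice of a group. The code was tested on simulated data.

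Named list genes are those past the threshold, at most 5 a direction and list, and the highest of a list. Il12b, Il23r, Il17a, Il17f, Il22, Epcam, Cdh1, Fos, Jun, Cd68 and the genes called without a pair of glands were named after their values were seen, as were the fits without a pair of glands. Alternatives changed the pseudocount (0.1), the filter, the scaling, the libraries and covariates. Authors' fold changes and p-values were not used. Results for some list genes are not reported here.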

Additional observations from a re-analysis of the deposited data

Results flagged for a closer look

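Il23a differed between the tumor classes: its change against the control glands was -2.52 on the log2 scale in the carcinosarcomas and 2.01 in the Trim24COE carcinomas, and the difference of these changes, tested directly between the classes, was -4.53 (limma adjusted p = 0.00735), with 3 of 3 carcinosarcomas below 3 of 3 carcinomas. It was the only gene of the 10 for which this difference passed the threshold, and the difference was known when the gene was chosen. The summed TPM of epithelial markers was lower in the carcinosarcomas, with 1 of the 7 tested called between the classes (Krt7), against 0.698% of all genes. In whole tissue fewer epithelial cells and less marker RNA per cell cannot be told apart, and the part of epithelial content was not tested. No single library was far from the rest of its group by Dixon's criterion in the 4 control glands or the 6 Trim24COE tumors, in 20 groups of values examined, where chance alone gives about 1 in 20. The criterion cannot mark a pair of alike libraries, such as glands 417_3 and 517_3.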

How the results depend on the processing

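The counts of called genes depended on the glands and on single mice. For the 6 Trim24COE tumors against the glands, where 1 gene was called, it was 2 with quantile normalization, with all 3 groups of batch 1 in the fit, with adipocyte markers as a covariate and without glands 417_3 and 517_3, and 6 without glands 133 and 392. Of all genes tested, these fits called in turn 2786, 3104 and 1186 of 15196, 3209 of 16628, and 2653 of 16351. Leaving out 1 mouse gave 1 to 2 (2 without carcinoma 273_5, with Il11 added). For the carcinosarcomas, where 2 were called, it was 1 without a filter on low values, with repeats averaged and with glands 417_3 and 517_3 averaged as 1. It was 3, all higher (Il6, Il11 and Socs3), without glands 417_3 and 517_3, where 5048 of all 15815 genes were called, a share near that of the 10 genes. It was 8 with the adipocyte covariate, where 4967 of 15287 genes were called. Without glands 133 and 392 it was also 8, 7 of them lower, where 5837 of 15538 genes were called. Leaving out 1 mouse gave 0 to 3 (0 without 64, 1 without 567, 897, 417_3 or 517_3, 3 without 133 or 392). For the carcinomas, where 0 were called, it was 1 with median-of-ratios scaling, 2 with the adipocyte covariate and without glands 417_3 and 517_3, and 3 without glands 133 and 392. The genes called in these fits were in turn 733 of 15452, 876 of 15479, 1255 of 16069 and 1224 of 15756. For Il23a between the tumor classes the call was lost (0) without a filter, with all 3 groups in the fit, and without 89 or 64 (range 0 to 1). Without a filter and without 89 or 64, 0 of all genes tested were called, and with all 3 groups 121 of 16050 were. For the non-TRIM24 tumors against the glands, where 0 were called, it was 2 with no batch term (2330 of all 16544 genes). It was 7 without glands 133 and 392 (3350 of all 17118 genes). Against the carcinomas, where 0 were called, it was 2 with no batch term (1500 of all 16544 genes). Against the carcinosarcomas, where 1 was called, it was 0 with a pseudocount of 0.1, without a filter and with repeats as separate libraries. It was 2 with no batch term (2425 of all 16544 genes), and 0 in every fit that left out 1 mouse.

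Directions changed in the 6 tumors against the glands as follows. Without glands 417_3 and 517_3, Il6 was 1.29, Il6ra 5e-04, Osmr 0.0447, Lif 1.63, Stat3 0.56 and Il23a 1.60. Without glands 133 and 392, Socs3 was -1.90 (-2.12 in the carcinosarcomas, -1.68 in the carcinomas), and with the adipocyte covariate -1.42 (-3.28 and -1.02). Il6ra was 0.17 with quantile normalization and 0.0199 with repeats averaged, Il23a was 0.0658 with quantile normalization, and with glands 417_3 and 517_3 averaged as 1 Lif was 0.28 and Il23a 0.36. Leaving out 1 mouse gave -0.14 to 0.11 for Il6ra, -1.08 to 0.37 for Lif, -0.34 to 1.33 for Socs3 and -0.92 to 0.39 for Il23a. For Socs3 it gave -0.56 to 1.11 in the carcinosarcomas and -0.12 to 1.55 in the carcinomas. The fits without a pair of glands or with them averaged were chosen after seeing the data, and other causes were not tested. A fit within batch 2 could not be run for the carcinosarcomas, which have no library there. No paired analysis was possible because the groups share no replicate numbers. The median log2 fold change of all genes was -0.27 for the non-TRIM24 tumors against the glands and -0.03 with median-of-ratios scaling.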

Other observations

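Several immune markers moved with the tumors beside the IL6 family, in a comparison where 17.1% of all genes were called. In the 6 Trim24COE tumors all 6 tested neutrophil markers rose against the glands, among them S100a9 by a log2 fold change of 5.01 ± 0.67 (SE; limma adjusted p = 0.00111), and 7 of 8 macrophage markers, led by the scavenger receptor Msr1 (4.01 ± 0.32; limma adjusted p = 1.00e-04). Of 6 B and plasma cell markers 5 fell, among them Jchain, the joining chain of secreted antibodies, with a log2 fold change of -3.37 ± 0.70 (limma adjusted p = 0.00935). Of 7 T cell markers 1 fell (Cd3e), near the share of all genes. Fibroblast markers summed to 2072 to 7988 TPM in the carcinosarcomas and 297 to 2916 TPM in the carcinomas. Carcinoma 273_5 had the lowest sum and the lowest Il11 of its class, but the order of the sums was not that of Il11 in either class. Carcinosarcoma 567 had the highest sum of its class, 7988 TPM, and the lowest Il11, 4.62 TPM. Carcinoma 89 had a higher sum than 3956 (2916 against 1997 TPM) and less Il11 (3.85 against 6.31 TPM).

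Among the non-TRIM24 tumors, 7 of the 10 IL6-family, Stat3 and Il23a genes had a value in FVB002 between those of 219 and FVB001. For Il6 the value in FVB002 was 0.42 TPM beside a mean of 0.43 TPM over the other 2 tumors, for Il23a 6.12 beside 6.27 TPM, for Socs3 50.5 beside 47.0 TPM and for Il6st 20.1 beside 18.9 TPM. Osmr, Stat3 and Il11 fell outside the range of the other 2 tumors.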
